A study of Mus musculus with 10 samples.

Results

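Collagen genes were taken from the deposited gene table of mouse gastrocnemius muscle as every symbol made of Col, a number, a and a number with nothing after, with a summed estimated count of at least 50 over the 10 samples. Of the 21956 genes listed, 44 had such a symbol and 42 reached that sum. Their lowest sums were 66 for Col6a4 and 75 for Col25a1, while Col9a3, with 32, and Col10a1, with 9, fell short of it. The 42 genes were divided by textbook class into 11 fibrillar collagens, 6 basement membrane collagens, which are the type IV chains, and 25 other collagens. The tissue came from wild-type mice (genotype WT) in 2 treatment groups, 5 samples labelled HLI and 5 labelled Sham. The labels leave HLI unexpanded, and it is taken to mean hindlimb ischaemia, with Sham as the operated control. No time point, age, sex or strain is given, and nothing says whether replicates are separate animals, so the p-values rest on sample-to-sample spread that could be technical.

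Collagens are secreted proteins of 3 chains wound into a triple helix, which needs a glycine to open each triplet of residues. Fibrillar collagens form the tensile fibrils of tendon and of the connective tissue sheaths of muscle. Type III and type V chains are made together with type I in repairing tissue, and type IV chains form the sheet-like network of the basement membrane around each muscle fibre and capillary. The other collagens bind to fibril surfaces, build beaded filaments beside the basement membrane, form hexagonal or anchoring networks, or span the cell membrane. Fibroblasts, tendon cells, endothelial cells, muscle cells and Schwann cells each make some of these chains.

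The repeat that defines the family can be read from the coding sequence, where each glycine codon has the letters GGN. In GENCODE M21 transcripts of mouse build GRCm38, taking for each gene the transcript with the longest coding sequence, the longest unbroken run of triplets starting with GGN spanned 216 to 344 triplets in the 11 fibrillar collagens. It spanned 39 to 66 triplets in the 6 type IV chains and 23 to 113 in the 25 other collagens. Col3a1 had the longest run, with 344 triplets, against 338 in Col1a1 and 339 in Col1a2. The type IV chains instead held 22 to 27 separate runs of at least 5 triplets each. The first 4 lines below give the opening 54 bases of the longest run in fibrillar chains. The last 2 give the end of the longest run in type IV chains, with 3 triplets inside it and the 9 codons after. Capitals mark the GGN codons that keep the repeat in phase, and they stop where the type IV repeat is interrupted.
Col1a1: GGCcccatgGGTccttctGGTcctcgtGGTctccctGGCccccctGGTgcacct
Col1a2: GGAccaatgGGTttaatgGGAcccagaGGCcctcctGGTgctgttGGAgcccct
Col3a1: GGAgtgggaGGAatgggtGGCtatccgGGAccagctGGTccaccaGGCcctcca
Col5a2: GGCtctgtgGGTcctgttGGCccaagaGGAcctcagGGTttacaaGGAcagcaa
Col4a1: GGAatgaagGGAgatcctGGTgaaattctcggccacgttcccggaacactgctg
Col4a2: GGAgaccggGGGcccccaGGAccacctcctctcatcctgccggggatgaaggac

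Levels in CPM are estimated counts per 1000000 counts of a library after TMM scaling, and they serve to compare samples. Levels of different genes are compared only as TPM, the deposited value relative to gene length. The totals of estimated counts ran from 16556385 to 22136299 per sample, and 13404 genes passed the filter on low counts, among them 40 of the 42 collagen genes (Col6a4 and Col25a1 did not). The 12 muscle fibre markers summed to 58164 to 156925 CPM in HLI and to 133865 to 180351 CPM in Sham, so the muscle label is borne out in every library. Several libraries stood apart. HLI replicate 3 had the lowest muscle fibre sum, and HLI replicate 4 the lowest tenocyte sum. Myh3, the embryonic myosin of newly formed fibres, stood at 7.71, 109, 442, 165 and 79.95 CPM in HLI replicates 1 to 5, against 164, 3.97, 5.63, 5.09 and 4.97 CPM in Sham replicates 1 to 5, so HLI replicate 1 and Sham replicate 1 each went against their group. The labels do not show whether the library labelled HLI 1 and the library labelled Sham 1 were exchanged, which was not tested, and every difference between the groups given here takes the labels as they stand. In bulk tissue, fewer cells of a type and less RNA per cell cannot be told apart.

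Fibrillar collagens took up more of the transcriptome in 4 of the 5 HLI samples than in any Sham sample. All 42 collagen genes summed to 0.675% ± 0.336 of TPM in HLI and to 0.392% ± 0.0945 in Sham (SD, n = 5 each). By sample this was 0.689%, 0.552%, 1.197%, 0.271% and 0.667% in HLI replicates 1 to 5, and 0.552%, 0.391%, 0.331%, 0.313% and 0.375% in Sham replicates 1 to 5. HLI replicate 3 was the highest library and HLI replicate 4 the lowest of all 10, so the HLI range enclosed the Sham range. Without HLI replicate 3 the difference between the group means was 0.152 percentage points, against 0.283 with all samples. Fibrillar collagens made up 0.463% ± 0.261 of TPM in HLI and 0.261% ± 0.0448 in Sham, basement membrane collagens 0.0898% ± 0.0291 and 0.0574% ± 0.0282, and other collagens 0.122% ± 0.0548 and 0.0737% ± 0.0224 (SD, n = 5 each).

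**Figure D1:**
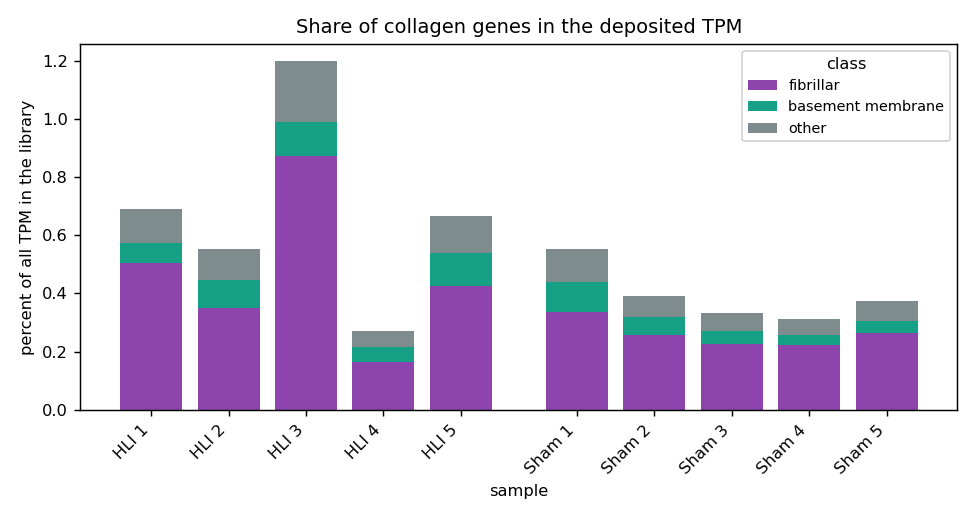
Share of the deposited TPM taken by collagen genes in each sample, as stacked bars for fibrillar, basement membrane and other collagens (y axis, percent of all TPM; x axis, 5 HLI and then 5 Sham samples). The totals run from 0.271% in HLI replicate 4 to 1.197% in HLI replicate 3, and from 0.313% to 0.552% in Sham.

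No single collagen gene passed the comparison of HLI with Sham. At a Benjamini-Hochberg adjusted p under 0.05 in edgeR's quasi-likelihood test, 0 of 40 tested collagen genes were called, beside 0 of all 13404 genes (0%). DESeq2 called 0 of the 40, beside 0.32% of the genes with an adjusted p. At an unadjusted p under 0.05, 11 of the 40 stood out, 7 higher and 4 lower in HLI, beside 16.9% of all genes, of which 10.7% were higher and 6.15% lower. Values above 0 were found in 25 of the 40, beside 53.8% of all genes, and only Col3a1 had a log2 fold change above 1, beside 3.42% of all genes. No collagen gene had every HLI sample above every Sham sample, and Col20a1 alone had every HLI sample below every Sham sample. The shares over all genes were 0.776% and 0.873%. Without Sham replicate 1, every HLI sample lay above the 4 other Sham samples in Col3a1 and in Col8a1, 2 of 40 beside 3.02% of all genes, which is close to the background. Without both Sham replicate 1 and HLI replicate 1, a fit chosen after seeing the data, 0 collagen genes were called, beside 0.401% of all genes.

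Class medians of the log2 fold change (HLI over Sham) were 0.31 for the 11 fibrillar collagens, 0.17 for the 6 basement membrane collagens and 0.41 for the 23 tested other collagens, beside 0.03 for all genes. On unscaled TPM, as log2(TPM + 1), the median of all genes was 0.19, and relative to it the 3 medians were 0.15, -0.05 and 0.20. As log2(TPM + 0.1) the median of all genes was 0.21, and the 3 relative medians were 0.16, 0.07 and 0.37. The sign for the basement membrane class thus depended on the value added to TPM. Without HLI replicate 3 the fibrillar median was 0.03, and without HLI replicate 1 the basement membrane median was 0.03. HLI replicate 3 was the highest of the 10 libraries for 20 of the 40 genes and HLI replicate 4 the lowest for 13. How often these libraries were highest or lowest over all genes was not counted, so these counts cannot be read as particular to collagens.

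**Figure D2:**
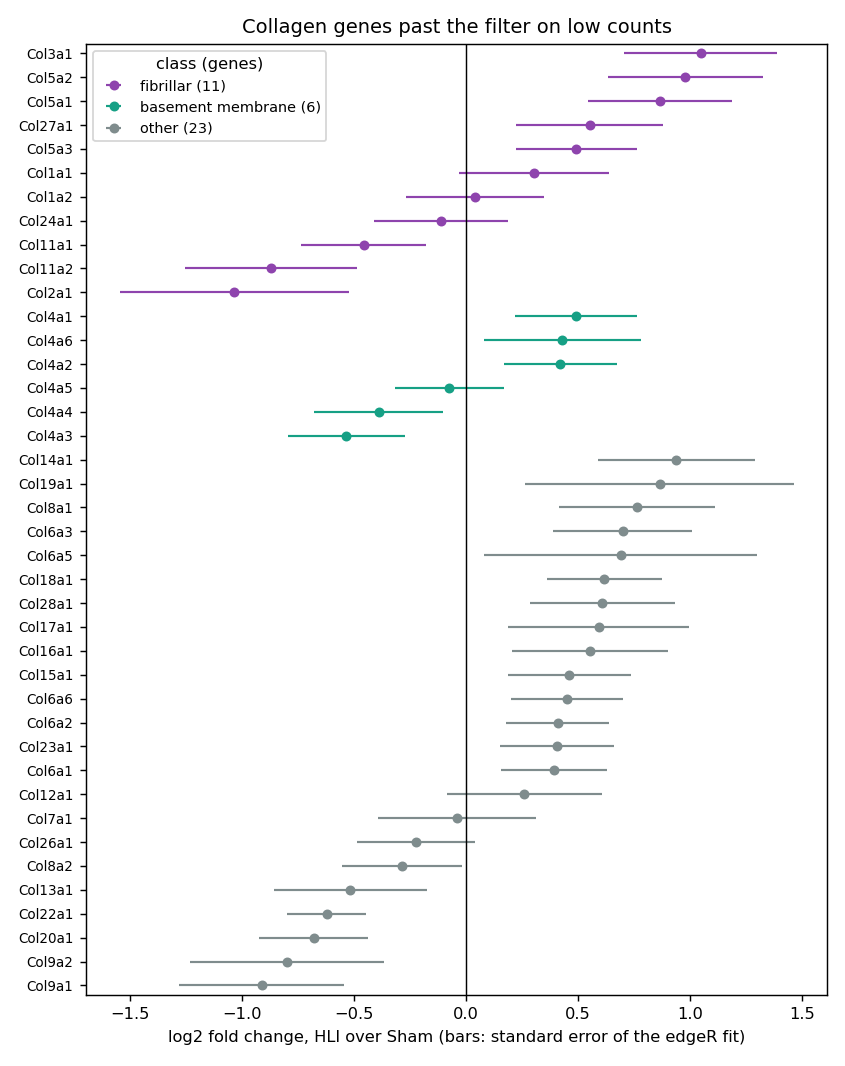
Log2 fold change of HLI over Sham (x axis) for each of the 40 collagen genes past the filter (y axis), coloured by class, with the standard error of the edgeR fit as bars. Col3a1 lies highest at 1.05 and Col2a1 lowest at -1.03, and both signs occur within each class.

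Among fibrillar collagens, 7 of 11 had values above 0, with Col3a1, Col5a2 and Col5a1 at the top, and the differences between genes were not tested. Col3a1 (ENSMUSG00000026043), the single chain of type III collagen, stood at 5521, 4109, 8797, 2243 and 5280 CPM in HLI replicates 1 to 5, against 4291, 1985, 2185, 2037 and 2049 CPM in Sham replicates 1 to 5. Sham replicate 1 lay among the HLI samples, and HLI replicate 4 lay just above the other Sham samples. The log2 fold change was 1.05 (SE 0.34, edgeR adjusted p = 0.29), and it was 0.77 without HLI replicate 3 and 1.33 without Sham replicate 1.

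Col5a2, a type V chain that helps start fibrils, had 616, 422, 1065, 251 and 524 CPM in HLI, against 484, 254, 261, 227 and 232 CPM in Sham. Col5a1, its partner chain, had 546, 407, 901, 228 and 461 CPM in HLI, against 440, 264, 241, 202 and 245 CPM in Sham. As for Col3a1, HLI replicate 3 was highest and Sham replicate 1 lay inside the HLI range, while HLI replicate 4 lay among the other Sham samples. Their log2 fold changes were 0.98 (SE 0.34) and 0.87 (SE 0.32, edgeR adjusted p = 0.29 for each). Col5a3, the third type V gene, averaged 197 ± 62.4 CPM in HLI and 140 ± 50.4 CPM in Sham (SD, n = 5 each), and its fold change on the log2 scale, 0.49 with an SE of 0.27 (edgeR adjusted p = 0.33), lay within the standard error of that of Col1a1.

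Col1a1 (ENSMUSG00000001506), which encodes the chain present as a pair in type I collagen, stood at 2960, 2101, 4230, 799 and 2339 CPM in HLI replicates 1 to 5, against 1845, 2210, 1607, 1976 and 2417 CPM in Sham replicates 1 to 5. Col1a2 (ENSMUSG00000029661), the other type I chain, stood at 3821, 2833, 4492, 1058 and 2946 CPM in HLI, against 2562, 3309, 2305, 3009 and 3530 CPM in Sham. For both chains HLI replicates 1 and 3 lay above the Sham range, HLI replicate 4 lay below it, and the groups overlapped. The log2 fold changes were 0.31 (SE 0.33) for Col1a1 and 0.04 (SE 0.31) for Col1a2, with edgeR adjusted p of 0.60 and 0.95. The value of Col1a2 had no stable sign, since it was -0.14 without HLI replicate 3, 0.25 without HLI replicate 4 and -0.10 on TPM after median-of-ratios scaling.

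**Figure D3:**
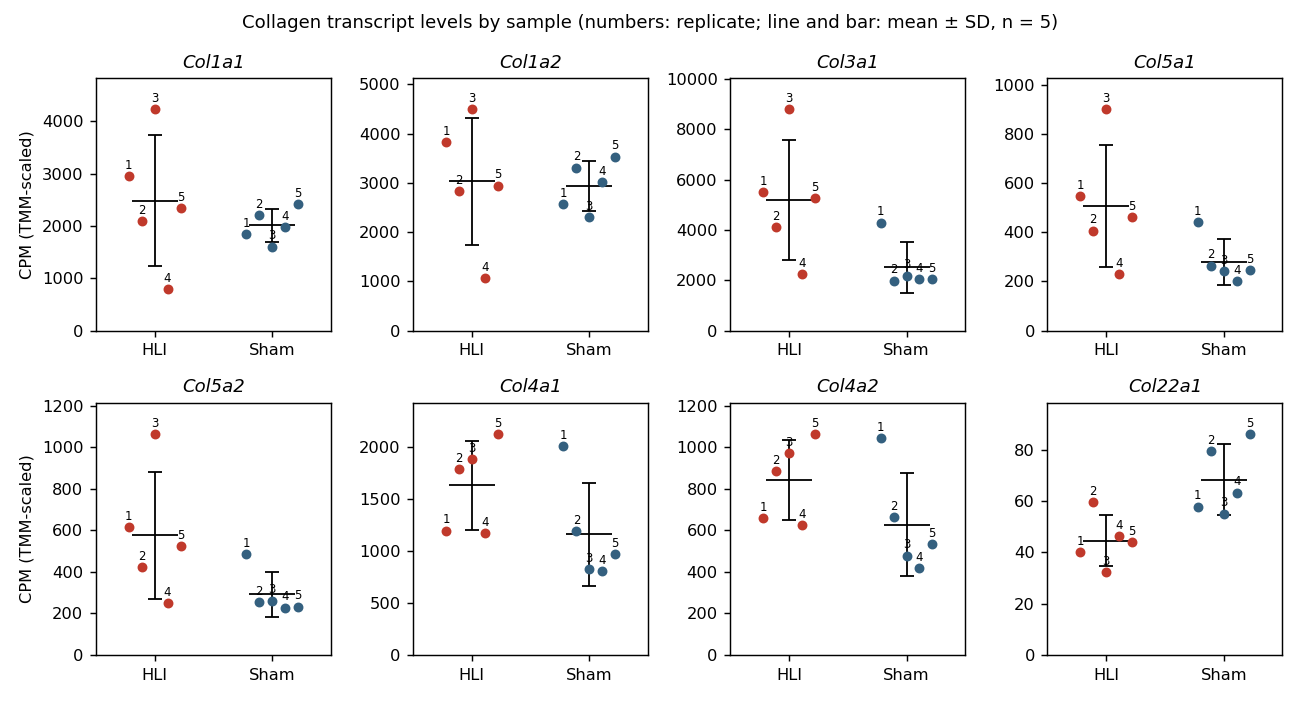
CPM of 8 collagen genes in each sample (y axis, from 0; HLI left, Sham right; points are samples with their replicate numbers, lines and bars the mean ± SD of 5). In Col3a1, Col5a1 and Col5a2, Sham replicate 1 sits apart from the other Sham samples and inside the HLI range, whereas HLI replicate 4 sits lowest in Col1a1 and Col1a2.

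The other fibrillar genes included the cartilage types. Col11a2, a chain of the type XI collagen of cartilage fibrils, averaged 23.9 ± 13.3 CPM in HLI and 43.6 ± 14.9 CPM in Sham (SD, n = 5 each), a log2 fold change of -0.87 (SE 0.38). Col11a1 averaged 43.0 ± 16.1 CPM in HLI and 59.0 ± 9.91 CPM in Sham. Col2a1, the main collagen of cartilage, averaged 2.87 ± 2.004 CPM in HLI and 5.87 ± 3.03 CPM in Sham. Together with Col9a1 and Col9a2, whose type IX collagen coats cartilage fibrils, these made 5 tested genes of types II, IX and XI, a grouping made after the values were seen. All 5 had values below 0, from -1.03 to -0.46, with edgeR adjusted p between 0.29 and 0.37. Cartilage and bone markers were near 0 in every library, at 2.81 to 7.30 CPM summed over 10 genes in HLI and 3.80 to 8.07 CPM in Sham, and 2 of them, Snorc and Bglap, were at 0 throughout. Their part in these values was not tested. Col27a1 and Col24a1, the 2 fibrillar genes with the shortest repeat in their class (217 and 216 triplets), had fold changes on the log2 scale of 0.55 for Col27a1 (SE 0.33) and -0.11 for Col24a1 (SE 0.30).

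Per length, Col3a1 had the highest mean of the collagen transcripts in HLI at 2187 ± 1251 TPM, ahead of Col1a2 at 1155 ± 603 TPM and Col1a1 at 861 ± 532 TPM (SD, n = 5 each). In Sham, Col1a2 averaged 928 ± 125 TPM, Col3a1 894 ± 370 TPM and Col1a1 572 ± 72.7 TPM. The Sham mean of Col3a1 included 1549 TPM in Sham replicate 1, against 687 to 816 TPM in the other Sham samples. Differences between genes within a group were not tested. Col3a1 made up 31.3%, 28.6%, 35.5%, 34.0% and 30.5% of all collagen TPM in HLI replicates 1 to 5, against 28.1%, 17.7%, 24.6%, 21.9% and 19.4% in Sham replicates 1 to 5. Every HLI sample lay above every Sham sample in this share, HLI replicate 4 included, although the gap to Sham replicate 1 was small. How often such shares separate for other genes was not counted. The 3 genes together made up 54.4% to 66.3% of collagen TPM in HLI and 54.4% to 66.3% in Sham.

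Ratios of chains within a sample are given as a description with no test. The Col3a1/Col1a1 ratio of TPM was 2.17, 2.42, 2.54, 4.12 and 2.65 in HLI replicates 1 to 5, against 2.71, 1.09, 1.69, 1.33 and 1.12 in Sham replicates 1 to 5. HLI replicate 4, low in both genes, had the highest ratio, and Sham replicate 1 was the one Sham sample inside the HLI range. The Col1a2/Col1a1 ratio was 1.44, 1.499, 1.18, 1.47 and 1.40 in HLI, against 1.54, 1.66, 1.59, 1.69 and 1.62 in Sham. Here all HLI samples lay below all Sham samples, including both libraries that went against their group for Myh3. It was the only ratio given here without overlap, and how often ratios of other gene pairs separate was not counted. The ratio of the estimated counts showed the same separation, at 1.29, 1.35, 1.06, 1.32 and 1.26 in HLI and 1.39, 1.497, 1.43, 1.52 and 1.46 in Sham. Counting error is small in these ratios, since the lowest library, HLI replicate 4, held 13650 counts of Col1a1 and 18075 of Col1a2. The Col4a2/Col4a1 and Col6a2/Col6a1 ratios overlapped between groups, at 0.370 to 0.463 in HLI and 0.399 to 0.458 in Sham, and at 1.03 to 1.12 in HLI and 0.989 to 1.08 in Sham.

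**Figure D4:**
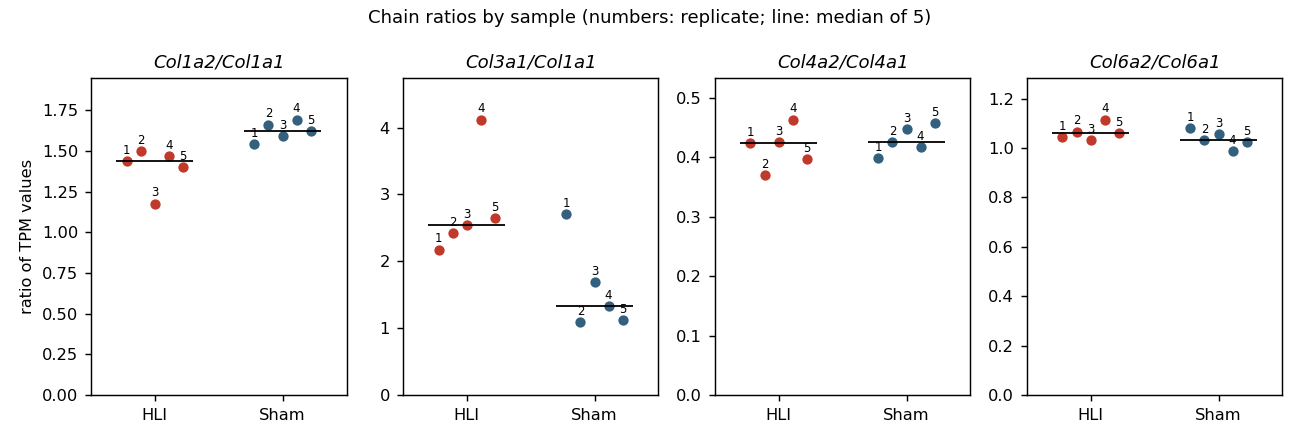
Ratio of TPM values of 4 chain pairs in each sample (y axis, from 0; HLI left, Sham right; points carry replicate numbers, lines are medians of 5). The Col1a2/Col1a1 points of HLI, up to 1.499, lie below those of Sham, from 1.54, and the pairs of type IV and type VI chains overlap.

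The promoter windows of Col1a2, Col3a1, Col4a1 and Col4a2 are shown as a description, and no link between these sequences and the levels was tested. RefSeq windows of 300 bases on build GRCm38.p6, from 250 bases before the start of transcription to 50 after, were at hand for 34 of the 42 genes. The windows are chr6:4505368-4505667 on the plus strand for Col1a2, chr1:45311288-45311587 on the plus strand for Col3a1, chr8:11312777-11313076 on the minus strand for Col4a1 and chr8:11312555-11312854 on the plus strand for Col4a2. The last 2 genes lie on opposite strands, with starts at 11312826 (Col4a1, minus) and 11312805 (Col4a2, plus). The starts are 21 bases apart and each lies inside the other transcript, so the first bases of the 2 transcripts overlap. Beyond that overlap the genes run away from each other, and their windows share 78 bases. Capitals mark CCAAT or its complement ATTGG, the box bound by nuclear factor Y.
Col1a2: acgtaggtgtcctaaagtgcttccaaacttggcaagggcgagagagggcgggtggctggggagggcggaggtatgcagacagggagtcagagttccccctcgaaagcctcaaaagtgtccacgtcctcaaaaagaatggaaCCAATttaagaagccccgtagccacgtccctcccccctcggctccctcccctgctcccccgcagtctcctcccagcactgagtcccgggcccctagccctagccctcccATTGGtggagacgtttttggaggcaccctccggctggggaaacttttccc
Col3a1: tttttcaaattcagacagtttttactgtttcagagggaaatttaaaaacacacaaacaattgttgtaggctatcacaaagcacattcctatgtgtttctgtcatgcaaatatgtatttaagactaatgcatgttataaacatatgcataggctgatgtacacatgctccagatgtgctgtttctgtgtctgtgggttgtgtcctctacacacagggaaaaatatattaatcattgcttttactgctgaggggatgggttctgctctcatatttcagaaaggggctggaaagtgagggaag
Col4a1: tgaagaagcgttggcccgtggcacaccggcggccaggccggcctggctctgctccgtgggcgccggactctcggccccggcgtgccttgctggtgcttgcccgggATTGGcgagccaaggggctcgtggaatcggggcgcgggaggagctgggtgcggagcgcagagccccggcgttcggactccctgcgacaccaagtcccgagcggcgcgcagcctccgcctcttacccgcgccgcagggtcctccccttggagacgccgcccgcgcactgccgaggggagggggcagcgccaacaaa
Col4a2: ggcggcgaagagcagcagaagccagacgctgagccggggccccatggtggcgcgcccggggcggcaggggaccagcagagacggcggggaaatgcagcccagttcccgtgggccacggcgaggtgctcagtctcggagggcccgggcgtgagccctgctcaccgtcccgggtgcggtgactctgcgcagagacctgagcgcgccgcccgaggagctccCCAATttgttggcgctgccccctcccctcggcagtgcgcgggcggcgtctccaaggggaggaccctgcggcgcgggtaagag

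CCAAT on either strand occurred in the windows of Col1a2, Col4a1 and Col4a2 and not in that of Col3a1. It was found in 13 of 37 collagen windows (some genes have more than 1) and in 37.4% of the 32851 windows of all genes. TATAA on either strand occurred in the Col3a1 window and in 6 of the 37, beside 24.9% of all windows. GGGCGG, the GC box, occurred in 23 of the 37, beside 35.7% of all. ACGTG, the core of hypoxia response elements, occurred in 5 of the 37, Col1a2 among them, beside 19.6% of all windows. CAGAC, a SMAD-binding sequence, occurred in 20 of the 37, beside 49.6% of all. Both strands were searched for each motif, and a match is a description of letters only.

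Of the 6 basement membrane collagens, 3 had values above 0 (Col4a1, Col4a2 and Col4a6) and 3 below. Col4a1, which with Col4a2 forms the common type IV network, stood at 1196, 1791, 1886, 1175 and 2130 CPM in HLI replicates 1 to 5, against 2009, 1191, 828.6, 808 and 972 CPM in Sham replicates 1 to 5. Col4a2 stood at 658, 885, 972, 627 and 1065 CPM in HLI, against 1046, 662, 478, 419 and 535 CPM in Sham. Sham replicate 1 was the second highest of all 10 libraries for both, and only HLI replicate 5 lay above the Sham range. The log2 fold changes were 0.49 (SE 0.27) for Col4a1 and 0.42 (SE 0.25) for Col4a2, with edgeR adjusted p of 0.34 and 0.36. Without Sham replicate 1 they were 0.78 and 0.68.

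Col4a3, Col4a4 and Col4a5 encode the chains of the second type IV network, known from kidney, lung and the neuromuscular synapse. Col4a3 had 5.46, 8.25, 2.53, 5.04 and 6.74 CPM in HLI, against 7.26, 8.33, 6.91, 10.0 and 7.95 CPM in Sham, so that 4 of 5 HLI samples lay below all Sham samples. Its log2 fold change was -0.53 (SE 0.26, edgeR adjusted p = 0.31). Col4a4 averaged 7.85 ± 3.20 CPM in HLI and 10.3 ± 2.86 CPM in Sham, and Col4a5, with 21.9 ± 7.47 CPM in HLI and 23.0 ± 5.23 CPM in Sham (SD, n = 5 each), had a value near 0 whose sign depended on single libraries. Col4a6 averaged 1.63 ± 0.675 CPM in HLI and 1.21 ± 0.394 CPM in Sham, and its fold change on the log2 scale, 0.43 with an SE of 0.35 (edgeR adjusted p = 0.48), was close to that of Col4a2. Per length, Col4a1 at 630 ± 211 TPM in HLI exceeded Col4a2 at 258 ± 80.1 TPM, the other 4 chains averaged under 10 TPM in both groups, and Col4a6 was the rarest at 0.477 ± 0.199 TPM in HLI and 0.305 ± 0.08695 TPM in Sham.

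Proteins that share the basement membrane with type IV collagen were listed as laminin chains, nidogens, perlecan, agrin, peroxidasin and SPARC. Of 16 tested, 0 were called and 12 had values above 0, beside 53.8% of all genes. The median log2 fold change was 0.14. Nid2, the gene of nidogen 2 that links laminin to type IV collagen, had 71.6, 87.7, 136, 54.0 and 98.5 CPM in HLI, against 84.5, 55.1, 44.0, 55.5 and 48.0 CPM in Sham. Pxdn, the peroxidase that cross-links type IV collagen, had 174, 264, 331, 178 and 279 CPM in HLI, against 268, 126, 95.3, 119 and 129 CPM in Sham. In both genes Sham replicate 1 lay within the HLI samples, as it did in Col4a1. Their log2 fold changes were 0.64 (SE 0.24) and 0.73 (SE 0.28, edgeR adjusted p = 0.29 for each). Without Sham replicate 1 and HLI replicate 1, Pxdn was called with a log2 fold change of 1.17 (edgeR adjusted p = 0.043). That fit was chosen after seeing the data, called 0.401% of all genes and left out the highest Sham sample of Pxdn.

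Among the other collagens, the tested genes of beaded filaments had values above 0, as did Col15a1 and Col18a1 of the basement membrane zone. Col7a1, an anchoring collagen, had a log2 fold change of -0.04 (SE 0.35). Type VI collagen forms filaments that tie the basement membrane of muscle fibres to the matrix, and loss of its chains causes muscular dystrophy. Col6a3, its largest chain, stood at 698, 570, 1090, 308 and 780 CPM in HLI replicates 1 to 5, against 687, 436, 332, 311 and 355 CPM in Sham replicates 1 to 5. Col6a1 had 597, 561, 848, 312 and 646 CPM in HLI, against 595, 462, 347, 386 and 465 CPM in Sham. Col6a2 had 610, 586, 852, 341 and 671 CPM in HLI, against 628, 470, 361, 375 and 467 CPM in Sham. In all 3 genes HLI replicate 4 was the lowest library, Sham replicate 1 lay near the middle of the HLI samples, and the groups overlapped. The log2 fold changes were 0.70 (SE 0.31), 0.39 (SE 0.24) and 0.41 (SE 0.23), with edgeR adjusted p from 0.29 to 0.36. All 5 tested type VI genes had values above 0.

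Col15a1, whose type XV collagen stabilises capillaries and muscle fibres from the basement membrane zone, had 251, 442, 417, 236 and 452 CPM in HLI, against 436, 246, 164, 200 and 259 CPM in Sham. As for Col4a1, HLI replicates 1 and 4 were the low HLI samples and Sham replicate 1 was the high Sham sample. Col18a1, the precursor of endostatin, averaged 121 ± 47.8 CPM in HLI and 79.0 ± 16.1 CPM in Sham (SD, n = 5 each), a log2 fold change of 0.62 (SE 0.26). Neither was called (edgeR adjusted p = 0.36 and 0.29). Counting both with the type IV chains would raise that class median to 0.43.

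Fibril-associated collagens went both ways, with 4 of 8 tested genes above 0 and 4 below. Col14a1, which binds fibrils through decorin, had 200, 199, 353, 79.7 and 226 CPM in HLI, against 191, 81.3, 78.7, 106 and 93.8 CPM in Sham, and 4 HLI samples lay above all Sham samples. Its log2 fold change was 0.94 (SE 0.35, edgeR adjusted p = 0.29), and 0.68 without HLI replicate 3. Col12a1, a fibril-associated collagen of tendon and muscle, averaged 189 ± 101 CPM in HLI and 158 ± 22.6 CPM in Sham, with 329 CPM in HLI replicate 3 and 55.0 CPM in HLI replicate 4.

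Col22a1, a collagen of the myotendinous junction, had 40.3, 59.6, 32.2, 46.4 and 44.1 CPM in HLI, against 57.9, 79.4, 55.1, 63.3 and 86.3 CPM in Sham, and 4 HLI samples lay below all Sham samples. It had the smallest unadjusted p of the collagen genes, at a log2 fold change of -0.62 with an SE of 0.18 (edgeR unadjusted p = 0.0042, adjusted p = 0.29), which ranged from -0.75 to -0.52 when each library was left out. Col20a1 had 4.13, 5.31, 2.38, 2.63 and 5.27 CPM in HLI, against 5.44, 7.60, 5.68, 5.95 and 6.89 CPM in Sham. It was the only tested collagen gene whose groups did not overlap, with a narrow gap, and its log2 fold change was -0.68 (SE 0.24, edgeR adjusted p = 0.29).

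Col8a1, a network-forming collagen of vessel walls, averaged 97.3 ± 35.1 CPM in HLI and 57.3 ± 33.7 CPM in Sham, with 160 CPM in HLI replicate 3 and 111 CPM in Sham replicate 1 (log2 fold change 0.76, SE 0.35). Col8a2, its partner chain, averaged 16.3 ± 5.98 CPM in HLI and 19.8 ± 2.50 CPM in Sham. Col28a1, a collagen of peripheral nerve, averaged 12.8 ± 5.22 CPM in HLI and 8.38 ± 3.65 CPM in Sham. Col13a1, a membrane collagen of the neuromuscular junction, averaged 2.55 ± 1.18 CPM in HLI and 3.65 ± 1.41 CPM in Sham (SD, n = 5 each). The log2 fold changes of the 23 tested genes of this class ran from -0.91 for Col9a1 to 0.94 for Col14a1.

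**Figure D5:**
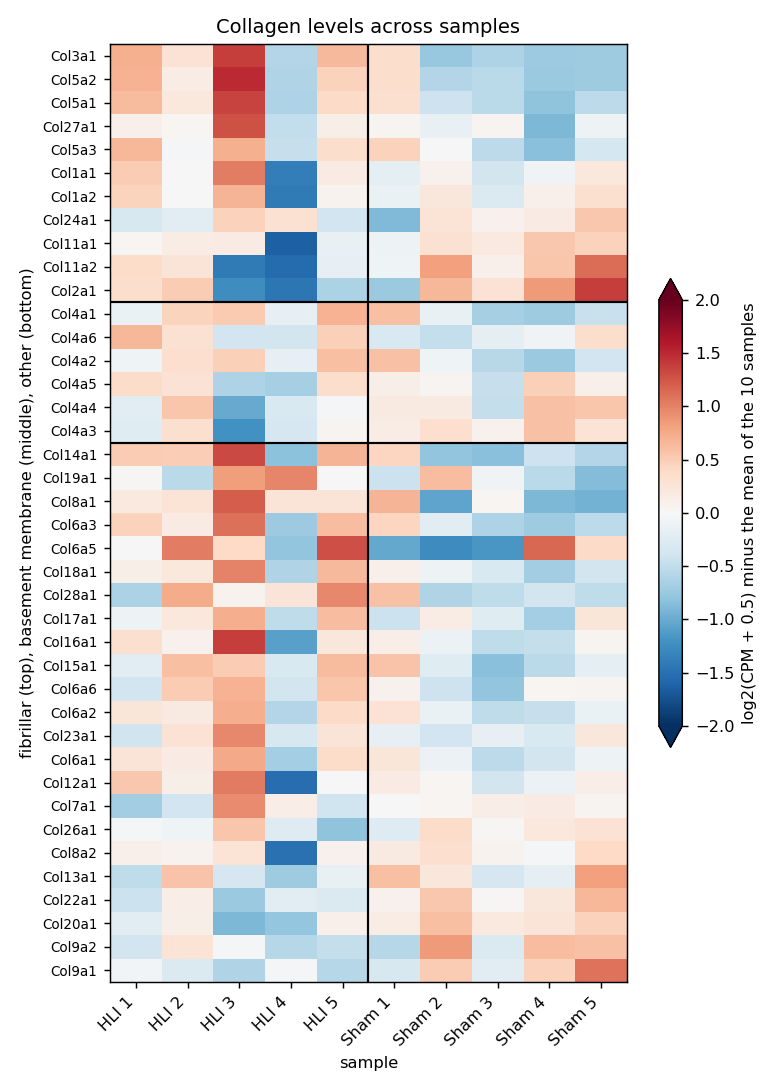
Level of the 40 tested collagen genes (rows, by class) in each sample (columns, HLI left, Sham right), as log2(CPM + 0.5) minus the mean of the 10 samples, with colours ending at -2 and 2. HLI replicate 3 is the highest library for 20 genes and HLI replicate 4 the lowest for 13, with no such count made over all genes.

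Genes that modify, cut and cross-link procollagen had mostly higher values, and none were called by edgeR. Of 28 tested, 21 had values above 0 and 7 below, beside 53.8% of all genes above 0. An unadjusted p under 0.05 was found in 7, all higher in HLI, beside 10.7% of all genes higher, and the median log2 fold change was 0.29. Adamts14, a protease that removes the amino propeptide of procollagen, had 6.17, 6.06, 12.6, 3.86 and 6.09 CPM in HLI, against 4.04, 2.62, 2.46, 2.92 and 2.05 CPM in Sham. In it 4 HLI samples lay above all Sham samples, the log2 fold change was 1.30 (SE 0.30, edgeR adjusted p = 0.29), and DESeq2 called it (adjusted p = 0.033). P3h1, a prolyl 3-hydroxylase of collagen, had 40.5, 30.0, 47.0, 21.96 and 32.3 CPM in HLI, against 28.6, 23.2, 21.3, 23.5 and 21.1 CPM in Sham, for a log2 fold change of 0.55 with an SE of 0.18 (edgeR adjusted p = 0.29).

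Small proteoglycans that coat fibrils had a median of -0.14 over 10 genes, 4 above 0 and 6 below, beside 53.8% of all genes above 0, with 0 called. Aspn, asporin, had 50.9, 104, 524, 108 and 84.8 CPM in HLI, against 95.1, 29.4, 61.7, 52.3 and 30.9 CPM in Sham, with HLI replicate 3 far above the rest. Without HLI replicate 3 its log2 fold change was 0.69, against 1.69 with all samples (edgeR adjusted p = 0.29). Lum, lumican, had 147, 252, 409, 166 and 306 CPM in HLI, against 243, 106, 151, 149 and 120 CPM in Sham, a log2 fold change of 0.74 (SE 0.30). Fmod, fibromodulin, a proteoglycan of tendon, averaged 521 ± 344 CPM in HLI and 904 ± 194 CPM in Sham, with 82.8 CPM in HLI replicate 4.

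Receptors for collagen were above 0 in 9 of 9 genes, beside 53.8% of all genes, with a median of 0.14 and 0 called. Lair1, an inhibitory collagen receptor of leukocytes, had 17.2, 15.1, 27.7, 6.91 and 12.3 CPM in HLI, against 12.8, 3.58, 9.43, 5.89 and 4.37 CPM in Sham, at a log2 fold change of 1.136 with an SE of 0.40 (edgeR adjusted p = 0.29). Itgb1, the shared beta subunit of collagen-binding integrins, had 488, 521, 658, 462 and 531 CPM in HLI, against 521, 411, 488, 388 and 376 CPM in Sham, for a log2 fold change of 0.28 with an SE of 0.14 (edgeR adjusted p = 0.31). Without Sham replicate 1 and HLI replicate 1, the integrin subunit gene Itga1 was called with a log2 fold change of 0.83 (edgeR adjusted p = 0.045). That fit was chosen after seeing the data and called 0.401% of all genes.

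Markers of cell types are given as counts above 0, to be read beside 53.8% of all genes, and as sums. Whether they vary with the collagen genes, and their part in the results, was not tested. The 8 myofibroblast markers had a median log2 fold change of 1.67, with 6 above 0, while the actin gene Acta2 (-0.19) and Tagln (-0.29) were below 0. They summed to 711 to 5426 CPM in HLI and 450 to 929 CPM in Sham. The highest sum was in HLI replicate 3, where Postn alone held 4520 CPM. The 12 markers of fibroblasts and fibro-adipogenic progenitors had a median of 0.12, with 7 above 0 and 5 below. They summed to 2538 to 4729 CPM in HLI and 3655 to 4839 CPM in Sham. Most of that sum was Gsn, which averaged 1780 ± 760 CPM in HLI and 2719 ± 433 CPM in Sham (SD, n = 5 each). Its log2 fold change was -0.61 (SE 0.29), so the sum went the other way from the median. The 9 tenocyte markers had a median of -0.45, 2 above 0, and summed to 472 to 2018 CPM in HLI and 1573 to 2209 CPM in Sham. Their lowest sum was in HLI replicate 4, where Col1a1 and Col1a2 were also lowest. In HLI replicate 3, where both genes were highest, the tenocyte sum (1412 CPM) and the fibroblast sum (2770 CPM) lay below the Sham range. Single genes of these lists went both ways in that library. Pdgfra (193 CPM), Thbs4 (1036 CPM) and Scx (6.57 CPM) lay above their Sham ranges, and Fmod (213 CPM) and Tnmd (41.6 CPM) lay below. The other genes of these lists are not given by sample. Endothelial markers, 9 of 12 above 0, summed to 1252 to 1952 CPM in HLI and 1145 to 1925 CPM in Sham. Macrophage markers were above 0 in 12 of 12, and summed to 879 to 3703 CPM in HLI and 694 to 1736 CPM in Sham. Pericyte and smooth muscle markers, 5 of 10 above 0, summed to 3250 to 4555 CPM in HLI and 4031 to 4457 CPM in Sham, and Schwann cell markers, 3 of 10 above 0, to 282 to 711 CPM in HLI and 355 to 1038 CPM in Sham. Muscle fibre markers were below 0 in 11 of 12.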

How the data were processed

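Poly(A) RNA of gastrocnemius muscle was sequenced as paired-end Illumina libraries, per the labels' protocols; they also mention adipose tissue and the series text speaks of cells, so the handling of the tissue is uncertain. HISAT2 2.0, Bowtie 0.12.2 and build mm8 are named, with no role, in the submitters' processing notes. For the counting tool, annotation and strand setting, no statement was found (not given in the sources used here). Reads of a gene and its antisense or overlapping partner therefore cannot be separated. The authors deposited 1 table with an estimated count (93.4% of them whole numbers) and a TPM value per gene and sample, per the file headers. Estimated counts were rounded and tested across all 13404 genes kept by filterByExpr (count minimum 10, total minimum 15) in R 4.3.3 with edgeR 4.0.16, using TMM and a quasi-likelihood test of HLI against Sham with no covariate. Benjamini-Hochberg adjustment covered all genes, calls were made under 0.05, and each standard error is the fold change over the root of its F statistic. The fit was tested on simulated data. Alternatives were DESeq2 1.42.0, its size factors, no filter, a replicate block, leaving out each library, limma 3.58.1 on log2(TPM + 1) and log2(TPM + 0.1), and, chosen after seeing the data, limma on scaled TPM and leaving out Sham replicate 1 and HLI replicate 1 together.

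The collagen genes and all lists were chosen with earlier results of these data known. Values per sample are given for Col1a1, Col1a2, Col3a1, Col4a1 and Col4a2, for the 4 most abundant genes (TPM) and the 3 with the smallest p of each class (Col4a4 and Col4a5 as mean ± SD), and for the 2 genes with the smallest p of each partner list. Col2a1, Col4a6, Col5a3, Col7a1, Col8a1, Col8a2, Col9a1, Col9a2, Col11a1 and Col11a2 were named after their values were seen. So were Col12a1, Col13a1, Col18a1, Col24a1, Col27a1, Col28a1, Fmod and Itga1. The single marker genes Acta2, Bglap, Gsn, Myh3, Pdgfra, Postn, Scx, Snorc, Tagln, Thbs4 and Tnmd were also picked outside that rule.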

Additional observations from a re-analysis of the deposited data

Results flagged for a closer look

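A single sample lay far from the others of its group in 9 of 66 groups of 5 values examined. The cutoff marks about 1 in 20 groups of independent, normally distributed values. These groups come from the same libraries and are not independent, so the 9 cannot be set against that rate. In Sham, replicate 1 was the sample apart in 6 of the 9. It held 4291 CPM of Col3a1, against 1985 to 2185 CPM in the other Sham samples, 484 CPM of Col5a2 against 227 to 261 CPM, and 440 CPM of Col5a1 against 202 to 264 CPM. It likewise held 191 CPM of Col14a1 against 78.7 to 106 CPM, 84.5 CPM of Nid2 against 44.0 to 55.5 CPM, and 268 CPM of Pxdn against 95.3 to 129 CPM. In HLI, replicate 3 held 12.6 CPM of Adamts14 against 3.86 to 6.17 CPM in the other HLI samples, and 524 CPM of Aspn against 50.9 to 108 CPM. HLI replicate 4 had a Col3a1/Col1a1 ratio of TPM of 4.12, against 2.17 to 2.65 in the other HLI samples.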

How the results depend on the processing

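Over the 18 alternatives, no collagen gene was called under any setting. The count over all genes was 0 in the edgeR fit with all samples, 42 in DESeq2 (35 higher, 7 lower) and 54 (51 higher, 3 lower) without Sham replicate 1 and HLI replicate 1, and that of partner genes was 0, 1 (Adamts14) and 2 (Pxdn and Itga1). Of the 25 named genes, Col1a2 and Col4a5 were the only ones whose sign turned. Col1a2, 0.04 in the main setting, ranged from -0.14 to 0.25 when each library was left out, and was -0.0801 with the replicate block, -0.10 without Sham replicate 1 and HLI replicate 1, and -0.10 on TPM after median-of-ratios scaling. Col4a5, at -0.07, ranged from -0.20 to 0.0531, and was 0.0942 on log2(TPM + 1) and 0.10 on log2(TPM + 0.1); all genes together had medians of 0.19 and 0.21 there. The cause was not tested. When each library was left out, the class medians ranged from 0.03 to 0.52 (fibrillar), from 0.03 to 0.27 (basement membrane) and from 0.23 to 0.55 (other).

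Same-numbered HLI and Sham samples had correlations of their deviations from -0.0090 to 0.28, and 2 of 10 samples correlated best with their own number. The labels state no pairing. These correlations cannot exclude one, since other differences between samples could hide it. The block called 0 genes, 0 of them collagens or partners, and gave class medians of 0.14 (fibrillar), 0.14 (basement membrane) and 0.36 (other). The values of the rarest chains, such as Col6a4 and Col25a1, are limited by depth.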

Other observations

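The sign of the fold change went with the summed count, which also depends on gene length, among the collagen genes, a pattern noticed in the data and given as a description, with the dividing sum chosen after the values were seen. Of the 18 tested collagen genes with a summed estimated count of at least 10000 over the 10 samples, 17 had log2 fold changes above 0, with a median of 0.49. The exception was Col22a1. Of the 22 with a lower sum, 8 were above 0, with a median of -0.17. Over all genes the order was the other way, with 37.9% above 0 and a median of -0.09 among 2760 genes at or over that sum, and 57.9% above 0 and a median of 0.07 among 10644 genes under it.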
